A study of Mus musculus with 8 samples.

Results

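Mitochondrial ribosomal protein genes were taken as every gene whose symbol is Mrpl or Mrps followed by a number and at most 1 letter. In all, 77 such genes were found among the 11871 genes with a mean level of at least 1 TPM (a level per transcript length, scaled to the same sum in every library) in pre-B cells, and all 77 passed that filter. Of these, 76 were named by the deposited files and Mrpl21 by its GENCODE annotation. With the transcripts named by the deposited files alone, 71 of the genes passed the filter, and 4 rather than 7 had an unadjusted p under 0.05. The 77 genes held 151 annotated transcripts, of which 99 passed the same filter. Mrpl53 had no entry in the files used here.

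The mitochondrial ribosome is built from ribosomal RNAs encoded by mitochondrial DNA and from proteins encoded in the nucleus, made in the cytosol and imported. It translates the mitochondrially encoded subunits of the respiratory chain. Mrpl genes encode proteins of the large subunit and Mrps genes proteins of the small subunit. Some have counterparts in bacterial ribosomes and others are found only in mitochondrial ribosomes. The names do not follow the structure in every case: Mrps18a and Mrps30 encode large subunit proteins, and Mrps36 is now known as a component of the α-ketoglutarate dehydrogenase complex. By these roles, the 77 genes comprised 50 of the large subunit, 26 of the small subunit and Mrps36.

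The study removed exon 16 of Dido1, the terminal coding exon that is specific to the chromatin reader Dido3, from mouse blood cells. Mutants carried a floxed and a deleted Dido1 allele (Dido1flE16/∆E16;R26R-EYFP;iCreVav1, named Dido1∆E16), and littermate controls carried a floxed and an intact allele with the same Vav1-driven Cre and EYFP reporter (Dido1flE16/+;R26R-EYFP;iCreVav1, named WT). Mice were C57BL/6, aged 6 to 10 weeks, and the pre-B RNA came from pools of 2 to 3 mice. RNA-seq was performed on sorted bone marrow pre-B cells and ATAC-seq, which maps open chromatin, on sorted Lin- Sca1+ cKit+ progenitors (LSK), with 2 libraries per genotype in each assay. The Vav1 promoter is active across blood cells, so Cre acts from the stem cell stage and controls carry it as well.

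Coverage of Dido1 exon 16, relative to the mean of the other exons of the same transcript, was 51.7% in WT replicate 1, 40.4% in WT replicate 2, 0.927% in Dido1∆E16 replicate 1 and 0.208% in Dido1∆E16 replicate 2. The pre-B markers Cd79a, Cd79b, Pax5, Ebf1, Rag1, Rag2 and Il2ra were above 0 in all 4 libraries. Markers of other cells differed between libraries. The summed level of 10 neutrophil and monocyte markers was 266 and 2241 TPM in WT replicates 1 and 2, and 1114 and 9731 TPM in Dido1∆E16 replicates 1 and 2. The 8 erythroid markers found summed to 340 and 951 TPM in WT and to 755 and 8746 TPM in Dido1∆E16, with Car1 and Epor listed at 0 throughout. Dido1∆E16 replicate 2 was therefore the highest library for both lists. Of 8 pro-B and large pre-B markers, which sum to 1265 and 843 TPM in WT and to 3367 and 2244 TPM in Dido1∆E16, 6 had an unadjusted p under 0.05 with the mutants higher, where 8.63% of all genes did. The 8 mature B cell markers summed to 9496 and 11494 TPM in WT and to 8498 and 8610 TPM in Dido1∆E16, and 10 cycling cell markers to 1991 and 308 TPM in WT and to 843 and 1025 TPM in Dido1∆E16. In the LSK libraries, Kit, Cd34, Flt3 and Meis1 had a promoter peak in all 4, Ly6a, which encodes Sca1, in none, and Gata2, Hlf and Mecom each in 1 WT library, so that 5 and 6 of 8 markers had a peak in WT and 4 and 4 in Dido1∆E16.

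The promoters of a few genes on which the results below turn are shown first, as 300-base windows of the GRCm38.p6 build from RefSeq, read 5′ to 3′ on the strand of the gene, from 250 bases before to 50 bases after the annotated start. Capitals mark matches, on either strand, to motifs common at genes of the mitochondrion or at CpG-rich promoters. Mrpl42 (chr10:95501900-95502199, minus strand) was the gene whose RNA level differed most. Mrpl52 (chr14:54426659-54426958, plus strand) and Mrpl12 (chr11:120484387-120484686, plus strand) had a promoter peak in WT but not in Dido1∆E16 libraries. Mrpl43 (chr19:45006393-45006692, minus strand) and Mrps11 (chr7:78782881-78783180, plus strand) each share a promoter with a gene that runs the other way. Mrpl45 (chr11:97315466-97315765, plus strand) held 3 matches to the core motif of NRF1, a factor that activates many nuclear genes for mitochondrial proteins.
Mrpl42: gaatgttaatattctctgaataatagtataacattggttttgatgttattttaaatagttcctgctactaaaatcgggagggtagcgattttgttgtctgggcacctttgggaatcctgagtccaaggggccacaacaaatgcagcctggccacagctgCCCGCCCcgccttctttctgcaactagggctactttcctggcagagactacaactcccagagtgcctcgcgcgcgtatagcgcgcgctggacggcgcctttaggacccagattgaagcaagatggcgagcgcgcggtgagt
Mrpl52: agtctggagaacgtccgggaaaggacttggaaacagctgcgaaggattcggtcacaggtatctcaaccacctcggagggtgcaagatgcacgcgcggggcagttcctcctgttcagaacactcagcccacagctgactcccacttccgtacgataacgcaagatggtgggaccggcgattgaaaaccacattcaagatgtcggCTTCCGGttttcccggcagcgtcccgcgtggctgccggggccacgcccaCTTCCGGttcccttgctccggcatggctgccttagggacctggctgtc
Mrpl12: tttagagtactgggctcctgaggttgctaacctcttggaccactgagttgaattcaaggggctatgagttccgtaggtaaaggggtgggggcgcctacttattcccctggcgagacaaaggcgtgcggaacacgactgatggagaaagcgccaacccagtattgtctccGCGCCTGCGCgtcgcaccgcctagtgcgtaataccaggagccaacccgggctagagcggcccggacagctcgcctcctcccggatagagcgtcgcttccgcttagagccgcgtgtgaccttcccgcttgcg
Mrpl43: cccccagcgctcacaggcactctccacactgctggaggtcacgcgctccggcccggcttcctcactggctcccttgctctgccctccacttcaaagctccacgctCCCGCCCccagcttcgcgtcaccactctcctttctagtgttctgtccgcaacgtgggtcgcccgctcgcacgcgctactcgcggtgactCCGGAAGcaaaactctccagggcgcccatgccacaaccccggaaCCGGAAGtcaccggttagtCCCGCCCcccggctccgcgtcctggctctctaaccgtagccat
Mrps11: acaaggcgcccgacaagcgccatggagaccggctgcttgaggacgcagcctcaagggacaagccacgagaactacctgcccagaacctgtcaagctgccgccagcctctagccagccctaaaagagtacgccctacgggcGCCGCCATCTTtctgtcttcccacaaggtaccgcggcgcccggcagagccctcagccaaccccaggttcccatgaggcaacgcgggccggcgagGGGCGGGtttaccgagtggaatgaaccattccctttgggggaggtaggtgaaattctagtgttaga
Mrpl45: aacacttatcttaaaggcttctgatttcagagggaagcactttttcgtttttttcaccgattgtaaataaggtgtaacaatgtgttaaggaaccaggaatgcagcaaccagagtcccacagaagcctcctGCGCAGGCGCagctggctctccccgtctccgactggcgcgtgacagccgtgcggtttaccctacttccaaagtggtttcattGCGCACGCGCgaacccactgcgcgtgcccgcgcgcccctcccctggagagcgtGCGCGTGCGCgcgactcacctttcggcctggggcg

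RefSeq windows were found for 68 of the 77 genes, 74 windows in all. The NRF1 core (GCGCA and GCGC separated by any base) was present in 13 of the 74 windows, or 17.6%, against 10.4% of the windows of the genes tested and 4.60% of all 32851 RefSeq windows. The ETS motif CCGGAAG, read by factors such as GABPA, was present in 25 windows, or 33.8%, against 18.8% and 8.86%. The YY1 motif ATGGCGG was present in 12 windows, or 16.2%, against 8.48% and 4.05%. Its longer form, with AAG before it and C after it, overlaps the shorter by construction and was present in 5 windows (6.76%, against 1.61% and 0.633%). The SP motif GGGCGGG and the E-box CACGTG were at shares near those of the tested genes, 43.2% against 45.8% and 9.46% against 10.03%. The window of Mrpl42 held an SP match alone, and those of Mrpl24, Mrps10 and Mrps25 held no match to any of these motifs. Of the 12 windows with the shorter YY1 motif, 11 (91.7%) held it in the 50 bases after the start, against 52.0% of the 965 such windows of tested genes. These are counts of letters and were not tested. GC content, which such counts depend on, had a median of 58.5% in the 74 windows, 60.3% in those of tested genes and 52.7% in all windows.

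In pre-B cells the Mrp genes were moderately expressed. Their mean level over the 4 libraries ranged from 4.61 to 236 TPM with a median of 60.9 TPM, against a median of 29.5 TPM for all genes tested. The most abundant were Mrpl34, with 237 and 264 TPM in WT and 241 and 202 TPM in Dido1∆E16, and Mrpl49, with 215 and 237 TPM in WT and 193 and 152 TPM in Dido1∆E16. Mrpl54, Mrpl20 and Mrpl52 followed, with means of 160, 154 and 146 TPM. Values of Mrpl34 and Mrpl54 overlapped between the genotypes, while those of Mrpl49, Mrpl20 and Mrpl52 did not. Mrps25 (4.61 TPM), Mrps36 (7.76 TPM), Mrpl17 (9.02 TPM), Mrps34 (10.8 TPM) and Mrpl23 (13.7 TPM) had the lowest means.

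The Mrp genes together were somewhat lower in the mutants. Their summed level was 5621 and 5723 TPM in WT and 5378 and 4668 TPM in Dido1∆E16, so that both mutant libraries lay below both WT libraries and their mean was 88.6% of the WT mean. Without Dido1∆E16 replicate 2, the library with the most erythroid and myeloid RNA, it was 94.8%. The summed mature B cell markers were also lower in both mutants, at 81.5% of WT. The part of these other RNAs in the difference was not tested, and in bulk libraries a lower share of RNA from pre-B cells and less of these RNAs per cell cannot be told apart. Large subunit genes stood at 87.9% of WT and small subunit genes at 90.5%.

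Gene by gene, 59 of the 77 had a negative log2 fold change (Dido1∆E16 over WT, on the log2(TPM + 1) scale), or 76.6%, against 41.7% of all genes tested. The median was -0.11 for the Mrp genes and 0.07 for all genes. Both mutant values were below both WT values for 26 Mrp genes, where 15.6% of all genes were, and above them for 2 (Mrpl27 and Mrpl44), where 27.1% of all genes were. The differences were small for most members, and the low side rested in part on 1 library: without Dido1∆E16 replicate 2, 42 of 77 genes were negative, with a median of -0.01 against 0.09 for all genes. With the log2 values of each library centred on their median, 69 were negative, with a median of -0.20 against -0.02 for all genes.

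**Figure D1:**
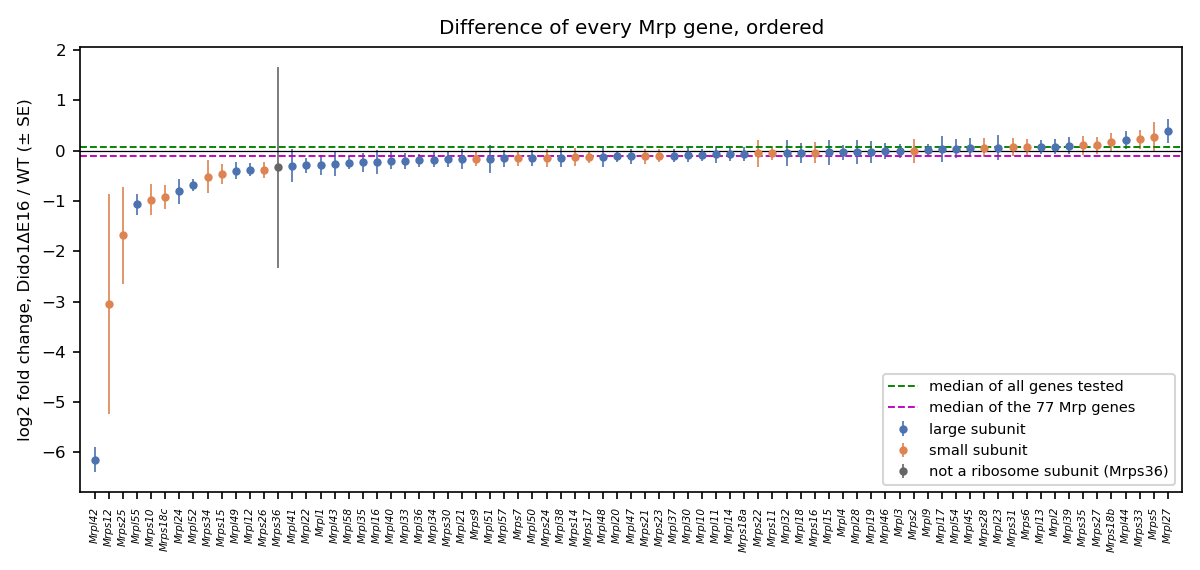
Log2 fold change (Dido1∆E16 over WT, log2(TPM + 1) scale) of each of the 77 Mrp genes in pre-B cells, ordered from lowest to highest, with bars of ± 1 SE from the limma fit over 2 libraries per genotype. Most points lie between -0.5 and 0.4 and below the all-gene median of 0.07, and Mrpl42 stands alone at -6.15.

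By limma's moderated test, with Benjamini-Hochberg adjustment over all 11871 genes, genes were called where the adjusted p was below 0.05 and the log2 fold change was 0.6 or more in size. By this rule 1 Mrp gene was called lower (0.0253% of all genes were) and 0 higher (0.0253% of all genes were). At an unadjusted p under 0.05, 7 Mrp genes were lower (3.02% of all genes were) and 0 were higher (8.63% of all genes were).

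The gene called was Mrpl42 (chr10:95480806-95501938, minus strand), which encodes a protein of the large subunit with no bacterial counterpart. Its level was 74.0 and 66.0 TPM in the WT libraries, and it was listed at 0 in both Dido1∆E16 libraries (adjusted p = 0.0343, limma). Of its 4 annotated transcripts, uc007gwi.1 carried nearly all of the signal, with 72.3 and 64.3 TPM in WT, and it was the single Mrp transcript called in the fit over 16372 transcripts (adjusted p = 0.0490, limma), where 0.0611% of transcripts were called lower and 0.0916% higher. No fold is given against a group at 0. An exact 0 from the transcript estimator can be a failed estimate as well as missing RNA: 168 of the 11871 genes (1.42%) were listed at 0 in some library and at 20 TPM or more in another, and 2 genes (0.0168%) showed this with both mutants at 0 and both WT libraries at 20 TPM or more, against 7 genes (0.0590%), none of them a member, the other way round. In LSK cells the Mrpl42 promoter had a peak in all 4 libraries. Its scores were 51 and 150 in WT, at the 53.5 and 74.3 percentiles of promoter peaks. In Dido1∆E16 they were 40 and 17, at the 35.5 and 8.1 percentiles. The peak of Dido1∆E16 replicate 2 was not among the 13208 best-scoring peaks of its library, whose lowest score was 18. The call did not hold with a pseudocount of 0.1, without the filter on low values, or when any library was left out (adjusted p from 0.0680 to 0.306).

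The other 6 genes at an unadjusted p under 0.05 did not pass adjustment (adjusted p from 0.217 to 0.393, limma), and their values are given as a description. Mrpl52, a large subunit protein specific to mitochondria, was at 179 and 180 TPM in WT and at 107 and 116 TPM in Dido1∆E16, a log2 fold change of -0.68 ± 0.12 (SE). Mrpl24, the counterpart of bacterial L24, was at 180 and 164 TPM in WT and at 122 and 78.2 TPM in Dido1∆E16, a log2 fold change of -0.81 ± 0.25 (SE). The 2 mutant values of Mrpl24 differed from each other more than its WT values did.

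Mrpl55 was at 32.4 and 41.2 TPM in WT and at 18.4 and 15.5 TPM in Dido1∆E16. Mrps18c, the counterpart of bacterial S18, was at 55.3 and 69.0 TPM in WT and at 38.4 and 26.8 TPM in Dido1∆E16. Mrps10, a small subunit protein whose expressed transcript was named by GENCODE alone, was at 19.0 and 21.6 TPM in WT and at 12.6 and 7.58 TPM in Dido1∆E16. In each of these genes the groups did not overlap and the mutant mean was between 46.1% and 52.4% of the WT mean. Mrpl12, which besides its place in the ribosome is known to bind the mitochondrial RNA polymerase, was at 73.5 and 77.7 TPM in WT and at 59.5 and 56.0 TPM in Dido1∆E16, a log2 fold change of -0.38 ± 0.13 (SE).

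**Figure D2:**
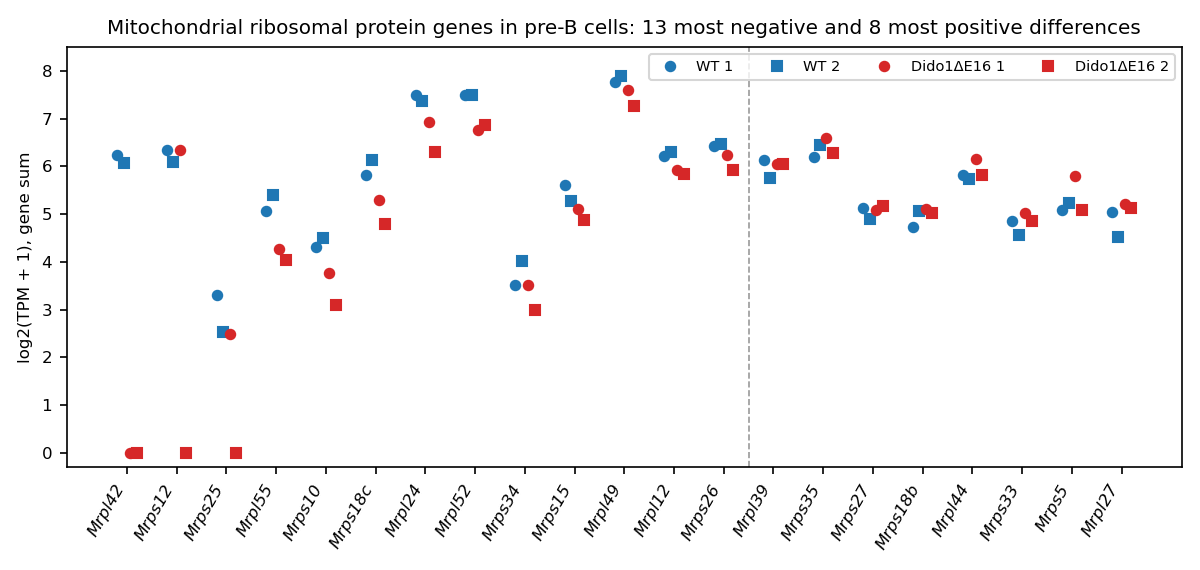
Level of the 13 Mrp genes with the most negative and the 8 with the most positive log2 fold change, as log2(TPM + 1) of the gene sum, in each pre-B library (circles, replicate 1; squares, replicate 2; blue, WT; red, Dido1∆E16). Mrpl42 sits at 0 in both mutant libraries, Mrps12 and Mrps25 sit at 0 in Dido1∆E16 replicate 2 alone, and the genes on the right overlap or nearly overlap between genotypes.

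Some low values rested on single libraries. Mrps12, a decoding-centre protein of the small subunit, was at 79.8 and 67.6 TPM in WT and at 79.7 TPM in Dido1∆E16 replicate 1, and was listed at 0 in Dido1∆E16 replicate 2. In that library an unstranded entry of the authors' assembly, which the gene sums do not use, lay inside Mrps12 (chr7:28739641-28740240) at 66.9 TPM. Mrps36 was at 19.3 TPM in WT replicate 1 and 11.8 TPM in Dido1∆E16 replicate 1 and listed at 0 in replicate 2 of either genotype, where such entries held 17.6 TPM (WT) and 12.5 TPM (Dido1∆E16). Mrps25 was at 8.97, 4.81 and 4.65 TPM and then listed at 0 in Dido1∆E16 replicate 2. With Mrpl42, these were the 4 members listed at 0 in any library. No such entry lay at Mrpl42 or Mrps25.

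On the high side the differences were smaller. Mrpl27 had the largest, a log2 fold change of 0.39 ± 0.23 (SE), with 32.0 and 22.0 TPM in WT and 36.1 and 34.2 TPM in Dido1∆E16. Mrps5 was at 32.9 and 36.7 TPM in WT and at 54.3 and 33.2 TPM in Dido1∆E16, and its second mutant value lay between the WT values. Mrpl44, an RNase III-like protein at the rim of the large subunit, was at 55.5 and 52.2 TPM in WT and at 70.1 and 55.8 TPM in Dido1∆E16. The others of the 8 most positive, Mrps33, Mrps18b, Mrps27, Mrps35 and Mrpl39, had log2 fold changes from 0.10 to 0.23 and overlapping groups. The sign of Mrps5, Mrps27, Mrps35 and Mrpl39 turned negative when a single library was left out. The 3 genes related to bacterial S18 did not move alike in value: the log2 fold change was -0.06 for Mrps18a, 0.17 for Mrps18b and -0.92 for Mrps18c, and the differences among them were not tested.

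Transcripts of the same gene also took different values. For Mrps18c, the transcript uc008yib.1 was at 28.6 and 69.0 TPM in WT and listed at 0 in both Dido1∆E16 libraries (adjusted p = 0.155, limma), while uc008yic.1 was at 26.7 TPM and 0 in WT and at 38.4 and 26.8 TPM in Dido1∆E16. For Mrpl55, uc007jdi.2 was at 39.9 TPM in WT replicate 2 and listed at 0 in the other 3 libraries, where uc007jdk.2 held 32.4 TPM (WT) and 18.4 and 15.5 TPM (Dido1∆E16). For Mrpl52, uc007tvy.1 was at 26.1 TPM in WT replicate 1 and listed at 0 elsewhere. For Mrpl55 and Mrps18c the transcript that carries the signal thus already differed between the WT libraries. The account above therefore rests on gene sums.

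By role, each group had more genes below than above WT apart from the small subunit proteins found only in mitochondria. Of 30 large subunit proteins with bacterial counterparts, 24 had a negative log2 fold change (median -0.08), and of 20 specific to mitochondria, 16 did (median -0.15). Of 16 small subunit proteins with bacterial counterparts, 13 were negative (median -0.13), against 5 of 10 of those specific to mitochondria (median 0.01). The differences between these groups were not tested.

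Some proteins of the mitochondrial ribosome carry other names. Of Dap3, Chchd1, Ptcd3, Aurkaip1 and Gadd45gip1, 0 were called and 4 had both mutant values below both WT values, as 15.6% of all genes did. At Dap3 the gap was under 0.1 TPM. Chchd1, a small subunit protein, was at 103 and 104 TPM in WT and at 76.6 and 66.8 TPM in Dido1∆E16, a log2 fold change of -0.53 ± 0.14 (SE; adjusted p = 0.313, limma). Dap3, the GTP-binding protein of the small subunit, was at 32.0 and 26.4 TPM in WT and at 26.3 and 26.3 TPM in Dido1∆E16. Gadd45gip1 overlapped, with 32.9 and 49.3 TPM in WT and 64.0 and 29.8 TPM in Dido1∆E16.

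Genes of the machinery around the ribosome lay on both sides of WT. Of 24 assembly factors, 0 were called and 11 were negative (median 0.03). Among them Rpusd3, a mitochondrial pseudouridine synthase, was at 15.05 and 16.3 TPM in WT and at 8.36 and 8.71 TPM in Dido1∆E16, and Dhx30, an RNA helicase of ribosome assembly, was at 65.9 and 57.8 TPM in WT and at 87.3 and 79.5 TPM in Dido1∆E16 (adjusted p = 0.313 and 0.393, limma). Of 15 translation factors 7 were negative (median 0.02), of 20 mitochondrial tRNA synthetases 9 (median 0.07), of 9 genes of mitochondrial DNA transcription and replication 4 (median 0.01), and of 9 tested regulators of mitochondrial biogenesis 4 (median 0.00), and 0 of these were called or had an unadjusted p under 0.05. Named entries of mitochondrial DNA comprised the ribosomal RNAs mt-Rnr1 and mt-Rnr2, and mt-Nd2, mt-Co1, mt-Co2, mt-Atp6 and AK142750. They cover only part of the transcripts that the ribosome translates. Together they made up 3.36% and 3.70% of the total level in the WT libraries and 2.64% and 3.17% of it in the mutants.

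The groups most like the Mrp genes were the cytosolic ribosomal protein genes and the nuclear subunits of oxidative phosphorylation. Of 82 cytosolic ribosomal protein genes tested, 60 were negative (73.2%, median -0.12) and 0 were called (2, both higher, had an unadjusted p under 0.05), but the WT libraries themselves lay far apart, with sums of 22770 and 29546 TPM and 25475 and 24357 TPM in Dido1∆E16. Of 81 oxidative phosphorylation genes, 45 were negative (55.6%, median -0.02), 1 was called higher (Ndufa5, a complex I subunit), 5 were lower and 1 higher at an unadjusted p under 0.05, and 21 had both mutant values below both WT values and 9 above. Their sums were 16219 and 16500 TPM in WT and 16591 and 15217 TPM in Dido1∆E16. In contrast to the cytosolic set, the WT libraries agreed closely for the Mrp genes.

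**Figure D3:**
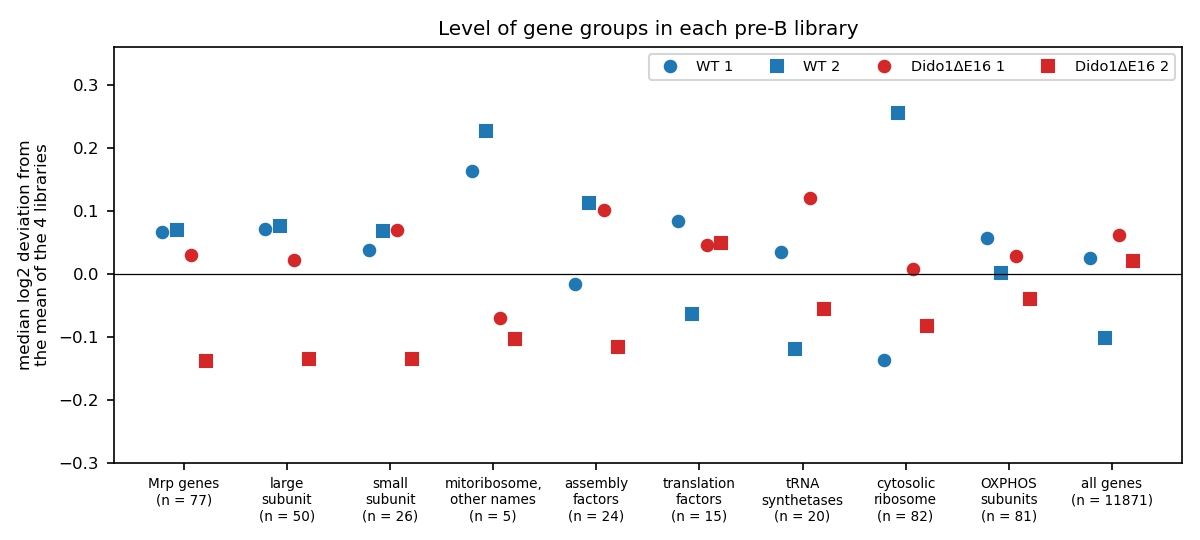
Median over the genes of a group of the log2(TPM + 1) deviation from the gene's own mean over the 4 libraries, in each pre-B library (circles, replicate 1; squares, replicate 2; blue, WT; red, Dido1∆E16). For the Mrp genes the medians are 0.07 and 0.07 in WT and 0.03 and -0.14 in Dido1∆E16, whereas for the cytosolic ribosome the WT libraries are the 2 extremes.

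ATAC-seq of LSK cells asks whether the promoters of these genes were open at an earlier stage. The authors called peaks with MACS2 in each library and annotated each peak to a gene, with the promoter set from 1 kb before to 200 bp after the start. The lists differ in length: 27352 and 57739 peaks in WT and 13208 and 16329 in Dido1∆E16. A promoter peak was annotated to 43 and 61 of the 77 Mrp genes in WT and to 34 and 36 in Dido1∆E16. Of all genes tested in pre-B cells, 65.0% and 76.6% had such a peak in WT and 57.3% and 55.5% in Dido1∆E16. When each list was limited to its 13208 best-scoring peaks, the counts were 32 and 36 in WT and 34 and 32 in Dido1∆E16, or 41.6% and 46.8% against 44.2% and 41.6%. Of all genes tested, 46.5% and 47.8% in WT and 57.3% and 50.3% in Dido1∆E16 then had such a peak, so that the mutants were higher over all genes. The mean difference between genotypes was 17 genes with the full lists and 1 gene at equal length, against a spread of 32 to 36 among the libraries.

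The annotation gives each peak to a single gene, and this bears on the Mrp genes because many have a close neighbour on the other strand. Of the 77, 29 had another gene's start on the opposite strand within 1 kb upstream or 200 bp downstream of their own (2375 of the 11871 genes tested had). Mrps11 and Mrpl46 are such a pair, with starts 42 bp apart. Mrpl43 lies opposite Twnk, the mitochondrial DNA helicase, at 116 bp, and Mrps12 opposite Sars2, the mitochondrial seryl-tRNA synthetase, at 187 bp. Mrpl47 lies opposite Ndufb5 of complex I, Mrpl18 opposite Tcp1, a subunit of the cytosolic chaperonin, and Mrpl32 opposite Psma2 of the proteasome.

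There were 12 Mrp genes with no annotated promoter peak in any library: Mrpl18, Mrpl21, Mrpl27, Mrpl43, Mrpl49, Mrpl57, Mrps7, Mrps11, Mrps18b, Mrps18c, Mrps26 and Mrps34. Of all genes tested, 19.8% had none. All 12 had a head-to-head neighbour, as did 31.9% of the 2345 tested genes without an annotated peak. An annotated peak in all 4 libraries was found for 26 Mrp genes (46.2% of all genes tested). At Mrps11 the peaks of all 4 libraries were annotated to Mrpl46, at Mrps18c those of all 4 libraries to Helq, and at Mrpl43 those of 3 libraries to Twnk. Counted instead as any peak that overlaps a start window, whatever gene it was assigned to, 60 and 77 Mrp genes had a peak in WT (75.7% and 88.4% of all genes tested had) and 51 and 53 in Dido1∆E16 (67.5% and 65.3%). In this count 0 of the 77 lacked a peak in all libraries (11.3% of all genes tested did), and 44 had a peak in all 4 (58.1% did).

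**Figure D4:**
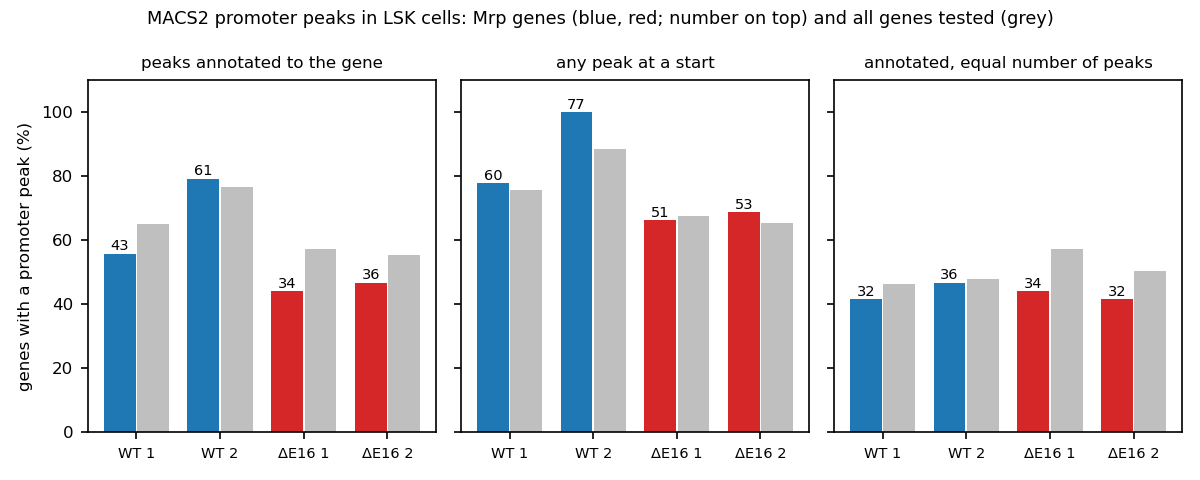
Share of genes (%) with a MACS2 promoter peak in each LSK library, for the 77 Mrp genes (blue, WT; red, Dido1∆E16; the number of genes is on the bar) and all 11871 genes tested (grey). Left, peaks annotated to the gene; middle, any peak in a start window; right, annotated peaks when every list is cut to its 13208 top-scoring peaks. The mutant bars are lower on the left and in the middle, and the 4 blue and red bars on the right lie between 32 and 36 genes.

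With either count, 5 Mrp genes had a promoter peak in both WT libraries and none in a Dido1∆E16 library: Mrpl12, Mrpl24, Mrpl33, Mrpl52 and Mrps25 (5.83% of all genes tested did by annotation and 6.19% by start window, and 6.49% of the Mrp genes did). With lists of equal length 0 of these 5, and 0 Mrp genes in all, kept that pattern (0.682% of all genes tested showed it). The reverse was found, with the full lists, for 0 Mrp genes by annotation (0.152% of all genes tested). With lists of equal length it was found for 1, Mrpl30 (3.18% of all genes tested). The WT peaks of the 5 genes with a peak in WT alone lay between the 6.1 and 50.4 percentiles of the promoter peak scores of their libraries. At Mrpl52 the MACS2 scores were 18 and 51, at the 6.1 and 27.9 percentiles. At Mrpl24 they were 34 and 77, at the 32.2 and 43.6 percentiles, and at Mrpl12 35 and 48, at the 33.7 and 25.5 percentiles. Mrpl12, Mrpl24 and Mrpl52 were also among the 7 genes at an unadjusted p under 0.05 in pre-B RNA. The assays were made on different cells, and this overlap was not tested.

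Where a peak was called, its rank by score was near that of other genes. The median percentile of the best promoter peak of an Mrp gene was 58.4 and 56.7 in WT and 58.8 and 55.6 in Dido1∆E16, against 55.6, 60.3, 53.1 and 53.3 for all genes tested. Mrpl17 had the highest, at the 98.4 and 98.3 percentiles in WT and the 98.2 and 99.2 percentiles in Dido1∆E16, although its RNA was among the 5 lowest of the family in pre-B cells. Mrps14 was between the 93.1 and 98.8 percentiles and Mrps28 between the 86.3 and 96.2 percentiles in the 4 libraries. Across the 77 genes, the score of the strongest start-window peak in WT replicate 2 and the mean WT level in pre-B cells had a Spearman rho of -0.11, and across 10490 tested genes of 0.03, as descriptions over genes of single libraries.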

How the data were processed

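Pre-B RNA-seq and LSK ATAC-seq reads were aligned to mm10 by the authors (BWA 0.7.15 is named in the submitters' processing notes) and duplicates were removed. The deposited StringTie 2.0 files, made by the authors with the UCSC known genes, give TPM and FPKM per transcript and no read counts. Their coverage summed over annotated transcripts was 1581 and 1121 Mb in WT and 1635 and 1173 Mb in Dido1∆E16, as the only measure of depth. The RNA reads were aligned with BWA-MEM per the file headers, which clips reads at exon junctions rather than splitting them, so short exons can be undercounted. The deposited MACS2 and HOMER peaks carry a peak score from each caller and the authors' gene annotation. The deposited score depends on the depth of a library, so scores were compared as percentiles within it. The authors' tables of differential expression and peaks hold fold changes and p-values, of which none was used, and 1 of them served for gene names.

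Symbols came from the deposited files, and from GENCODE M21 for transcripts without one that share at least 50% of their exonic bases. TPM was summed per gene over the 63753 transcripts listed in all 4 libraries. Genes with a mean of at least 1 TPM were tested as log2(TPM + 1) with limma 3.58.1 (trend, Benjamini-Hochberg adjustment), and the transcripts likewise. A fold change on this scale understates changes of low genes. A start window ran from 1 kb before to 200 bp after any annotated start. The study's results section calls the 2 libraries of a group biological replicates, and p-values measure the spread between them. Its ATAC-seq methods describe more samples per genotype than the 2 libraries used here. With 2 against 2 libraries an exact permutation test cannot go below p = 0.333, so none was run. Data were simulated for this comparison over 11871 genes. Of genes changed by 6 log2 units 98% were called, 100% at 4, 66% at 2 and 16% at 1. Beside 8, 33, 50 and 49 calls of changed genes at 1, 2, 4 and 6 log2 units (50 genes each), there were 6 false calls. In the real data 6 genes were called in all. The adjustment is stricter where fewer genes pass, so the simulated false calls do not give the false share of the real ones. Changed genes were drawn from those above a set level, with normal noise. Failed estimates were not simulated, so the simulation does not cover calls that may rest on them.

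The genes and lists were chosen with earlier results of these data known. Genes were named if called or at an unadjusted p under 0.05, among the 8 largest differences each way, the 5 highest or lowest levels, or the 3 highest peak percentiles, if listed at 0 in a genotype for a transcript at 10 TPM or more in the other, or by their promoter peak pattern. Mrps18a, Mrps18b, Mrps18c, Mrps36 and the 5 proteins with other names were always named. Mrpl46, Mrpl47, Mrpl32 and the neighbours named were chosen after their positions were seen.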

Additional observations from a re-analysis of the deposited data

Results flagged for a closer look

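Entries that the authors' assembly added in single libraries were not used in the gene sums. At Mrps12 such an entry stood at 66.9 TPM in Dido1∆E16 replicate 2, where the annotated transcript was listed at 0, and no WT library had an entry there. At Mrps5 an entry stood at 20.7 TPM in Dido1∆E16 replicate 1, again with none in WT. Both were singled out because they are signal outside the measurement used, with no such entry in the control libraries. Neither was above the WT level of its own gene. At Mrps12 the annotated transcript was at 79.8 and 67.6 TPM in WT.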

How the results depend on the processing

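The fitted log2 fold change of Mrpl42 was negative under all alternatives run, but its call was lost under several. The number of Mrp genes called, 1 as reported, was 0 with a pseudocount of 0.1, without the filter on low values, and from 0 to 0 when each library was left out, where a lone library is assumed to vary like the other genotype. Mrp transcripts called, also 1 as reported, were likewise 0 with a pseudocount of 0.1, without the filter, and from 0 to 0 when each library was left out. With the replicate block, 0 genes and 0 transcripts were called, and with crossed numbers in the block (added after seeing the data) 0 and 0. Same-numbered libraries deviated together only weakly (r = 0.05 over genes), and with 2 pairs the numbers were not taken to pair the libraries. Over all genes, 6 were called as reported, 87 by limma without a trend, 11 with the top transcript of each gene, and 0 with the block. The median log2 fold change of the Mrp genes, -0.11 as reported, was -0.20 with median-centred values, and between -0.18 and -0.015 when each library was left out. Of the 7 Mrp genes at an unadjusted p under 0.05, the count was 11 with median-centred values, 4 with the symbols of the deposited files alone, and between 2 and 10 when each library was left out. The difference between genotypes in Mrp genes with a promoter peak, 17 on average, was 9.5 with HOMER peaks (38 and 62 in WT, 39 and 42 in Dido1∆E16, so that WT replicate 1 lay below both mutants), was 1 at equal list length and ranged from 8 to 26 when each library was left out. Of 269 log2 fold changes for 17 genes, 7 reversed. Mrpl55 was at 1.05 with its top transcript. Leaving out each library, Mrps12 ranged from -6.22 to 0.12 (positive without Dido1∆E16 replicate 2), Mrps5 from -0.067 to 0.63 and Mrps35 from -0.056 to 0.27 (negative without Dido1∆E16 replicate 1, Mrps35 also without WT replicate 1, at -0.017), and Mrpl39 from -0.078 to 0.28 and Mrps27 from -0.0042 to 0.23 (negative without WT replicate 2). With FPKM, without immunoglobulin transcripts and with added single-library entries the results kept their direction, though not always their size. At Mrps12 the added entry put Dido1∆E16 replicate 2 at 66.9 TPM, near the 79.8 and 67.6 TPM of WT. Leaving out a library has fewer samples by construction, and beyond that the cause was not tested. With no read counts in the files used, no counting error can be given.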
